A study of Mus musculus with 45 samples.

Results

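The genes described here are imprinted genes of the mouse, read on expression arrays of embryonic stem cells (ESCs) and of embryoid bodies (EBs) made from them. A list of 34 imprinted genes was taken, and each gene was read by the probe set with the highest mean over all 45 arrays. Of these, 31 were measured by a probe set listed for that gene alone, which is 0.17% of the 18193 genes on the array with such a probe set. Among the 31, 17 are known to be expressed from the paternal allele and 12 from the maternal allele, and for Grb10 and Gnas the allele depends on tissue or transcript. Dio3 and Zrsr1 were not analysed here, and the probe set for H19 is listed jointly with Mir675, so it was not read as H19.

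The arrays cover 3 lines of male ESCs of strain 129. WT is the wild type line, SCR carries a scrambled control, and KD is labelled as silenced for Strip2, which encodes a component of the striatin-interacting phosphatase and kinase complex. Each line was sampled as ESCs and as hanging-drop EBs on days 4, 8, 12 and 16, with 3 arrays for each of the 15 groups. Whether a line is 1 clone, and how it was silenced, is not given in the sources used here. The sources do not say that the 3 arrays of a group are independent cultures. The p-values therefore rest on the spread among those arrays, which may be technical, and their number limits the precision.

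Signals are on the log2 scale, from 1.82 to 14.26 over all arrays, with array medians of 5.02 to 5.18. The Strip2 signal matches the label only in part, and it was dim, with every group mean below the array medians. Its group means were 2.7 to 3.12 in WT, 2.57 to 4.85 in SCR and 2.72 to 3.75 in KD. It was lower in KD than in SCR by -0.92 on day 12 (adjusted p = 1e-04) and by -1.56 on day 16 (adjusted p = 8.6e-09), but it was not called lower in KD than in WT at any stage, and was higher by 0.63 on day 12 (adjusted p = 0.0061). At so dim a signal a fall below WT could go unseen, so these values do not settle whether Strip2 was silenced. The line is therefore written as the KD-labelled line, and differences from both controls are given. The first day 8 array of each line also carries an ESC tag in another label field. It was kept at day 8, and counts without these arrays are given below.

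Imprinted genes are expressed mainly or only from the allele of 1 parent. Marks of DNA methylation set in the egg or sperm lie in control regions that often govern a whole cluster, and many clusters hold paternally expressed genes that promote fetal growth and maternally expressed genes that restrain it. The zinc finger protein ZFP57 binds a methylated hexamer, TGCCGC, in these control regions and keeps them methylated after fertilisation. The arrays measure the sum of both alleles, so they do not show which allele was read.

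The start regions of 5 members are shown because their promoters lie in differentially methylated regions, and because these genes show the divergent courses described below. Bases were taken from RefSeq on build GRCm38.p6, 250 bases upstream of the listed start for Mest (chr6:30737800-30738049), Plagl1 (chr10:13090582-13090831) and Meg3 (chr12:109540746-109540995). Peg3 and Usp29 are transcribed away from each other, and the 163 bases between their starts are given once, on the strand of Usp29 (chr7:6730420-6730582). All 4 stretches are on the plus strand, and capitals mark TGCCGC or its reverse complement GCGGCA, searched on both strands.
Mest: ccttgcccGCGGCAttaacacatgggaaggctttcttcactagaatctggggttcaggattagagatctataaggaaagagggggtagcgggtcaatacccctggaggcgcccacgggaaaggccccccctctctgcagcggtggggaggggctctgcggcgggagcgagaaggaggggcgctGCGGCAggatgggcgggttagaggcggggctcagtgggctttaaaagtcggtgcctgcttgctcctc
Plagl1: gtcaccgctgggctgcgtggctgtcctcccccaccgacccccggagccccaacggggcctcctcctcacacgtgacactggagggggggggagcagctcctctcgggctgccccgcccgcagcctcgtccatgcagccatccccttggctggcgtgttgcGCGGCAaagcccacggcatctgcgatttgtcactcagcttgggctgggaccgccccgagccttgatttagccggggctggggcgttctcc
Meg3: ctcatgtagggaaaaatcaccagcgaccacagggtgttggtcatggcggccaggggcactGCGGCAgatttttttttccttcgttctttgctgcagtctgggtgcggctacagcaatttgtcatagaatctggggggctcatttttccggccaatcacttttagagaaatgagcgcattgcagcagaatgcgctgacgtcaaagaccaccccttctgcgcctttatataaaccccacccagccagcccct
Peg3-Usp29: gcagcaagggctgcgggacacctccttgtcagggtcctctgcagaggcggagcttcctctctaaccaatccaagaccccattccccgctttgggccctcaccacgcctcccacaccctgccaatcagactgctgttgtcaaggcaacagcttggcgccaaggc

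The stretch of Mest held the hexamer at 2 positions, those of Plagl1 and Meg3 at 1 each, and the stretch between Peg3 and Usp29 at none. Where a gene had several listed starts, the start with the most hexamers was printed, so these counts partly follow from that choice. The 250 bases upstream of another Mest start (chr6:30733256-30733505) and of another Meg3 start (chr12:109545148-109545397) held none. These stretches hold 14, 19, 10 and 5 CpG dinucleotides, in the order Mest, Plagl1, Meg3 and Peg3-Usp29. Of the 29 listed genes with a promoter entry, 5 had the hexamer in the 250 bases upstream (Meg3, Mest, Nap1l5, Plagl1 and Zim1), against 9.84% of 27025 genes. Nnat, Grb10 and Gnas, which also differed between the lines, had none there, so the printed genes do not stand for the list. A match is a description of letters and not a site.

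As a group, the imprinted genes rose during EB differentiation of both controls and stayed low in the KD-labelled line. The mean signal of the 31 genes went from 6.76 ± 0.14 (SD, n = 3 arrays) in WT ESCs to 8.64 ± 0.03 on day 8 and 8.4 ± 0.16 on day 16. In SCR it went from 6.87 ± 0.13 to 8.42 ± 0.02 and 7.94 ± 0.04. In the KD-labelled line it was 6.59 ± 0.03 in ESCs, 6.72 ± 0.08 on day 8 and 6.78 ± 0.05 on day 16. Over the same groups, the mean of all 18193 genes lay between 6.31 and 6.41.

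The rise was larger for the paternally expressed genes. Their mean over 17 genes was 6.45 ± 0.17 in WT ESCs and 9.17 ± 0.01 in WT EBs of day 8, and 6.68 ± 0.14 and 8.96 ± 0.02 in SCR. In the KD-labelled line it was 6.38 ± 0.04 and 6.57 ± 0.09. The 12 maternally expressed genes went from 6.72 ± 0.14 to 7.62 ± 0.06 in WT and from 6.67 ± 0.12 to 7.46 ± 0.1 in SCR, and their mean was 6.63 ± 0.03 and 6.44 ± 0.11 in the KD-labelled line. Most of the rise of this mean in the controls came from 1 gene, Asb4. It went from 4.16, 3.68 and 3.43 to 12.01, 12.01 and 11.93 in WT, and from 3.47, 3.89 and 3.74 to 12.28, 11.98 and 12.23 in SCR. This difference between the allele classes is a description and was not tested.

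**Figure D1:**
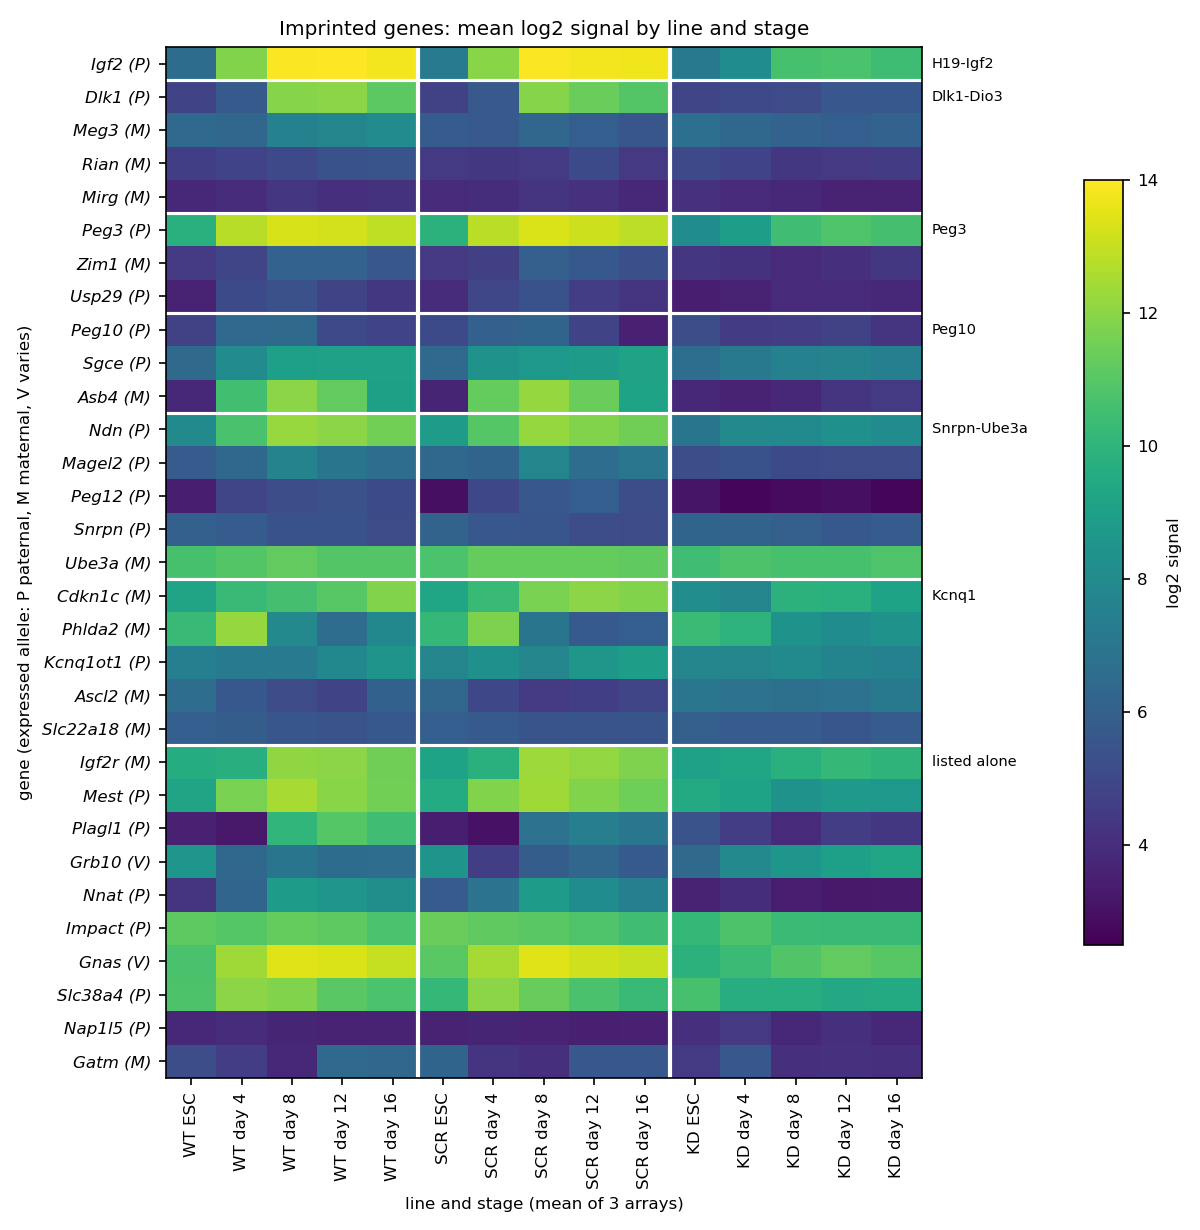
Mean log2 signal of the 31 measured imprinted genes (rows, ordered by imprinted cluster and marked P, M or V for paternal, maternal or varying allele) in the 15 groups of 3 arrays (columns, by line and stage). Most rows brighten after ESCs in the WT and SCR blocks, and Igf2, Dlk1, Asb4 and Mest are among those that stay darker in the KD block.

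A gene was called when its adjusted p was under 0.05 (limma, Benjamini-Hochberg over 18193 genes). From ESCs to day 16, 21 of 31 members rose and 6 fell in WT, where 28.1% of all genes rose and 38.1% fell. In SCR, 17 rose and 7 fell, against 29.1% and 42.7% of all genes. In the KD-labelled line, 11 rose and 8 fell, against 19.1% in each direction. The change from ESCs to day 16 differed between KD and SCR for 22 members, 17 toward lower and 5 toward higher in KD. Of all genes, 21.3% were called toward lower and 26.4% toward higher.

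Compared with SCR, the KD-labelled line had 5 members higher and 9 lower in ESCs, where 12.3% of all genes were called higher and 11.3% lower. On day 4, 8 were higher and 20 lower, against 22.6% and 19.9% of all genes. On day 8 the counts were 5 and 21, against 28% and 24.7%. On day 12 they were 5 and 23 (31% and 24.6%), and on day 16 they were 6 and 19 (39.8% and 26.8%). Most members were thus lower from day 4 on, whereas more of all genes were higher than lower.

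Compared with WT, 2 were higher and 7 lower in ESCs, against 8.66% and 9.78% of all genes, and 5 and 17 on day 4, against 19.2% and 19.9%. On day 8 the counts were 5 and 23 (26% and 23.9%), on day 12 they were 4 and 22 (27.1% and 23.6%), and on day 16 they were 4 and 23 (34.6% and 26.1%). The members were again mostly lower in EBs. Without the first day 8 arrays, 3 were higher and 21 lower against SCR on day 8, and 4 and 21 against WT. Of the members' 60 calls on day 8, with those between SCR and WT included, 54 were kept.

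The sizes were large. At least 2-fold differences from SCR numbered 3 higher and 18 lower on day 8, where 20.1% of all genes passed the same limit in either direction. The median difference over the 31 members was -1.62 on day 8 and -1.35 on day 16, against 0.07 and 0.17 over all genes. On day 8 the median was -2.72 for the paternally expressed and -0.35 for the maternally expressed members. All 3 KD arrays lay below all 6 control arrays, with both comparisons called, for 20 members on day 8 (20.2% of all genes), of which 14 of 17 were paternally expressed and 5 of 12 maternally expressed. The scaling of the arrays moves the split of calls among all genes on day 16 against SCR from 59.7% higher to 71.7% with arrays centred on their medians and 48.4% with cyclic loess, and the members' counts were then 8 higher and 18 lower, and 5 higher and 22 lower.

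**Figure D2:**
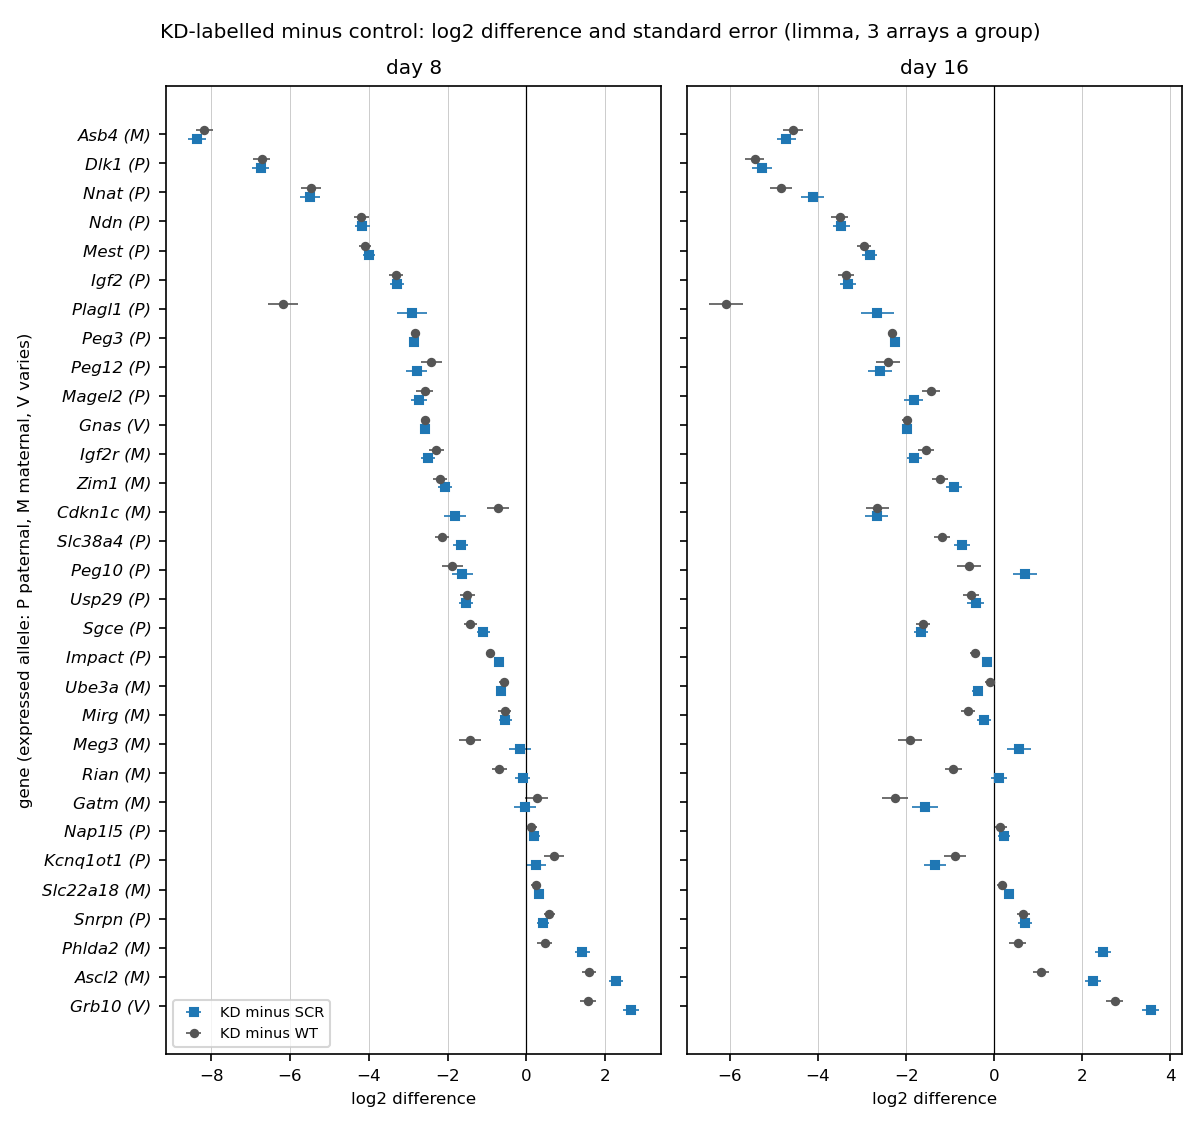
Log2 difference of the KD-labelled line from SCR (blue squares) and from WT (grey circles) for each measured imprinted gene, with bars of 1 SE from the limma fit, on day 8 and day 16. Most points lie left of 0 on both days, and Grb10, Phlda2 and Ascl2 lie right of it against both controls.

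The lines also differed in cell type markers, in ways that varied by list and day. The 8 pluripotency markers averaged 10.75 to 11.09 in KD EBs, near the 11.52 of the KD ESCs, whereas WT EBs averaged 6.13 to 7.42 and SCR EBs 5.58 to 6.4. The 9 mesenchyme markers averaged 5.2 to 5.65 in KD EBs of days 8 to 16, against 11.33 to 11.74 in WT and 11.01 to 11.31 in SCR. On day 4 they were closer together, at 5.7 in WT, 5.87 in SCR and 4.94 in KD. The 4 blood markers averaged 11.7 in WT, 11.26 in SCR and 4.11 in KD on day 8, and 5.04, 4.07 and 4.35 on day 16. The 6 neural markers averaged higher in KD on day 4, with 5.17 in WT, 5.18 in SCR and 6.18 in KD. On day 16 the neural means were 6.55, 6.98 and 5.3. The 7 endoderm and liver markers on day 16 averaged 10.04 in WT, 10.34 in SCR and 7.6 in KD, but they were split. Among them, 2 were higher and 4 lower than SCR (39.8% and 26.8% of all genes), and 2 and 4 than WT (34.6% and 26.1%). The part of all these markers in the results above and below was not tested. In these bulk samples, fewer cells of a type and less RNA per cell cannot be told apart.

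Igf2 encodes insulin-like growth factor 2, the main fetal growth factor of the imprinted set. Its signal on day 4 was 12.24, 11.8 and 11.38 in WT, 11.96, 12.08 and 11.87 in SCR, and 7.98, 8.38 and 7.98 in KD. The day 8 arrays read 13.89, 14.03 and 13.93 in WT, 13.9, 14.03 and 13.82 in SCR, and 10.22, 10.69 and 11.01 in KD. The KD arrays lay below every control array on both days, although Igf2 did rise in the KD-labelled line, by 3.29 from ESCs to day 16, where WT rose by 7.22 and SCR by 6.49. The difference from SCR was -3.86 ± 0.18 (SE) on day 4 (adjusted p = 1.4e-19) and -3.28 on day 8 (adjusted p = 7.5e-18), and it was -3.09 on day 12 and -3.32 on day 16. The differences from WT were -3.69, -3.31, -3.25 and -3.36 on the same days.

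Igf2r encodes the receptor that takes up and degrades IGF2, and is expressed from the maternal allele. On day 8 its signal was 11.85, 12.37 and 12.08 in WT, 12.34, 12.3 and 12.31 in SCR, and 9.66, 9.8 and 10 in KD, with every KD array below the controls. It was lower than SCR by -2.5 ± 0.18 on day 8 (adjusted p = 3.6e-14) and by -1.81 on day 16, and lower than WT by -2.28 and -1.55. The growth factor and the receptor that removes it were thus both lower in the KD-labelled line.

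Grb10 encodes an adaptor that dampens signalling of the insulin and IGF1 receptors, and it took the opposite course. In ESCs its signal was 8.88, 7.86 and 8.84 in WT, 8.7, 8.05 and 8.58 in SCR, and 6.49, 6.51 and 6.45 in KD. By day 16 it was 6.39, 6.39 and 7.01 in WT, 5.55, 5.75 and 6.02 in SCR, and 9.34, 9.3 and 9.33 in KD. The KD arrays thus lay below all control arrays in ESCs and above them all on day 16. The difference from SCR was -1.96 ± 0.2 in ESCs (adjusted p = 2.2e-09), 3.26 on day 4 (adjusted p = 6.4e-16) and 3.55 on day 16 (adjusted p = 2.9e-17). Against WT it was -2.04, 1.58 and 2.73. From ESCs to day 16, Grb10 fell by 1.93 in WT and by 2.67 in SCR and rose by 2.84 in KD (adjusted p = 1.7e-13).

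Among 14 measured genes of the insulin-like growth factor pathway, 3 were higher and 8 lower than SCR on day 8 (28% and 24.7% of all genes), and 3 and 7 on day 16 (39.8% and 26.8%). Against WT the counts were 3 and 9 (26% and 23.9%), and 3 and 8 (34.6% and 26.1%). Igfbp1, a secreted binding protein made in liver, averaged 3.4 in KD and 10 in SCR on day 16, a difference of -6.6 (adjusted p = 3.6e-21), and differed from WT by -4.42. Irs1, which carries the signal inward from the receptor, averaged 6.97 in KD and 10.47 in SCR on day 8, a difference of -3.5, and differed from WT by -3.65. The binding protein Igfbp4 was lower on day 8 by -2.97 than SCR and by -2.63 than WT, and Igfbp3 was lower on day 16 by -3.34 than SCR and by -2.45 than WT.

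In the Peg3 cluster, Peg3, which encodes a zinc finger protein, was lower in the KD-labelled line at all 5 stages against both controls. In ESCs its signal was 9.81, 9.98 and 9.67 in WT, 9.99, 9.9 and 9.84 in SCR, and 8.09, 7.99 and 8.2 in KD. On day 4 it was 12.83, 12.83 and 12.59 in WT, 12.89, 12.76 and 12.83 in SCR, and 9.02, 8.82 and 9.02 in KD. The KD arrays lay below all control arrays already before differentiation, and the gap was widest on day 4. The difference from SCR was -1.82 ± 0.1 in ESCs (adjusted p = 5.8e-16), -3.87 on day 4 (adjusted p = 2.3e-26), -2.86 on day 8, -2.3 on day 12 and -2.25 on day 16. Against WT it was -1.73, -3.8, -2.82, -2.37 and -2.32.

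Usp29, which shares the start region printed above with Peg3, is a paternally expressed ubiquitin protease gene. On day 8 its signal was 5.13, 5.37 and 5.54 in WT, 5.62, 5.32 and 5.19 in SCR, and 4.09, 3.83 and 3.63 in KD. The KD arrays were below the controls, by -1.53 ± 0.19 against SCR (adjusted p = 1.3e-08) and by -1.5 against WT. By day 16 the difference from SCR was -0.42 and was not called (adjusted p = 0.053). Against WT it was still called lower, but that call was lost without the first WT array (-0.33, adjusted p = 0.17) or the third KD array (-0.4, adjusted p = 0.099). Usp29 was dim, with group means below the array medians in 12 of the 15 groups. The maternally expressed neighbour Zim1, a zinc finger gene, read 6.22, 6.44 and 5.68 in WT, 6.07, 6.02 and 5.87 in SCR, and 4.11, 3.94 and 3.7 in KD on day 8. It was lower by -2.07 ± 0.18 than SCR (adjusted p = 1.7e-12) and by -2.2 than WT, so genes of both parental alleles in this cluster were lower.

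The Peg10 cluster held Asb4, the member with the largest difference between KD and either control. This maternally expressed gene encodes a substrate adaptor of a ubiquitin ligase and is known from vascular development. It lay between 3.43 and 4.16 in all 9 ESC arrays. On day 4 it was 10.36, 10.81 and 10.43 in WT, 11.35, 11.16 and 11.26 in SCR, and 3.25, 3.85 and 3.84 in KD. Day 8 signals were 12.01, 12.01 and 11.93 in WT, 12.28, 11.98 and 12.23 in SCR, and 3.62, 4.18 and 3.6 in KD. In other words, the KD EBs kept the level of ESCs. The difference on day 8 was -8.36 ± 0.22 from SCR (adjusted p = 1.1e-26) and -8.18 from WT (adjusted p = 2.5e-26). It was -4.72 and -4.57 on day 16, when the control arrays had come down to between 8.69 and 9.63.

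Sgce, which encodes epsilon-sarcoglycan, was lower in KD EBs throughout. Its day 16 signal was 9.09, 8.99 and 9.14 in WT, 9.15, 9.09 and 9.14 in SCR, and 7.36, 7.51 and 7.51 in KD. The gap of -1.67 ± 0.16 from SCR (adjusted p = 2.9e-11) and -1.61 from WT was wider than the range of either control. Peg10, a gene derived from a retrotransposon and needed for the placenta, did not keep its difference. The day 8 arrays read 6.69, 6.08 and 6.68 in WT, 6.61, 5.66 and 6.4 in SCR, and 4.62, 4.2 and 4.98 in KD, lower by -1.62 ± 0.27 than SCR (adjusted p = 3.1e-06) and by -1.88 than WT. On day 16 it read 5.29, 4.76 and 4.43 in WT, 3.56, 3.44 and 3.68 in SCR, and 4.71, 3.62 and 4.43 in KD. There the KD arrays overlapped both controls. The difference from WT was -0.57 (adjusted p = 0.065), and the higher call against SCR (0.69, adjusted p = 0.024) was lost when any of 3 single arrays was left out, with a lowest value of 0.46 without the first KD array.

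In the Dlk1-Dio3 cluster, Dlk1, a paternally expressed membrane protein related to the Notch ligands, lay between 4.57 and 5.19 in all ESC arrays. On day 8 its signal was 11.53, 12.24 and 11.89 in WT, 11.76, 12.38 and 11.61 in SCR, and 5.15, 5.11 and 5.23 in KD. On day 16 it was 11.27, 10.73 and 11.28 in WT, 10.88, 11.09 and 10.8 in SCR, and 5.42, 5.84 and 5.69 in KD. Both controls thus rose far above ESCs and the KD-labelled line stayed near them. The difference was -6.75 ± 0.22 from SCR (adjusted p = 2.3e-24) and -6.72 from WT on day 8, and -5.27 and -5.44 on day 16.

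Meg3, a maternally expressed noncoding RNA of the same cluster, followed another pattern, in which SCR and KD both lay below WT from day 8. Before that, SCR alone was the lowest line. In ESCs Meg3 read 6.69, 6.26 and 6.39 in WT, 6.07, 5.86 and 5.62 in SCR, and 6.68, 6.88 and 6.59 in KD. Day 4 arrays read 6.33, 6.25 and 6.3 in WT, 5.87, 5.58 and 5.7 in SCR, and 6.29, 6.52 and 6.39 in KD. KD was called higher than SCR at both stages, and both calls were lost in some fits with 1 array left out. On day 8 Meg3 read 7.81, 7.61 and 7.28 in WT, 6.16, 6.41 and 6.31 in SCR, and 5.96, 6.21 and 6.21 in KD. On day 16 it read 9.16, 7.87 and 7.06 in WT, 5.51, 5.55 and 5.62 in SCR, and 5.77, 6.38 and 6.22 in KD. Every WT array lay above all arrays of the other lines on both days, and the WT arrays of day 16 were spread widely. SCR differed from WT by -1.27 ± 0.28 on day 8 (adjusted p = 0.003), -1.84 on day 12 and -2.47 on day 16 (adjusted p = 4.2e-08). KD differed from WT by -1.44, -1.82 and -1.91, and from SCR by -0.17, 0.02 and 0.56, none of these 3 called. Of the 10 further Meg3 probe sets, 6 were also called lower in SCR than in WT on day 16 and none higher, and 4 were called lower and 1 higher in KD than in WT. Without the first day 8 arrays, SCR differed from WT in Meg3 by -1.09 on that day and was not called (adjusted p = 0.06).

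Rian, the snoRNA host downstream of Meg3, read 6.12, 5.31 and 4.99 in WT, 4.71, 4.2 and 4.38 in SCR, and 4.55, 4.75 and 4.32 in KD on day 16. WT was again the highest, with SCR lower by -1.04 ± 0.19 (adjusted p = 0.00017) and KD lower by -0.93 (adjusted p = 7.1e-05). With the arrays of SCR and WT fitted alone, the Rian call between them was lost (adjusted p = 0.1). On day 12 Rian had KD below all control arrays, by -0.69 against SCR (adjusted p = 0.0023) and -0.96 against WT. Mirg, the microRNA host of the cluster, was dim in all groups, with group means of 3.58 to 4.31, and was not called between SCR and WT at any stage. Its KD arrays lay below all control arrays on day 8, by -0.53 against SCR (adjusted p = 0.0046) and -0.55 against WT, and on day 12, by -0.49 and -0.46. On day 16 it was lower than WT by -0.6 (adjusted p = 0.0014) and not called against SCR. Dlk1 thus set KD apart from both controls, and from day 8 Meg3 set WT apart from SCR and KD. Rian did the first on day 12 and the second on day 16, and Mirg, with small differences, did the first on days 8 and 12.

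**Figure D3:**
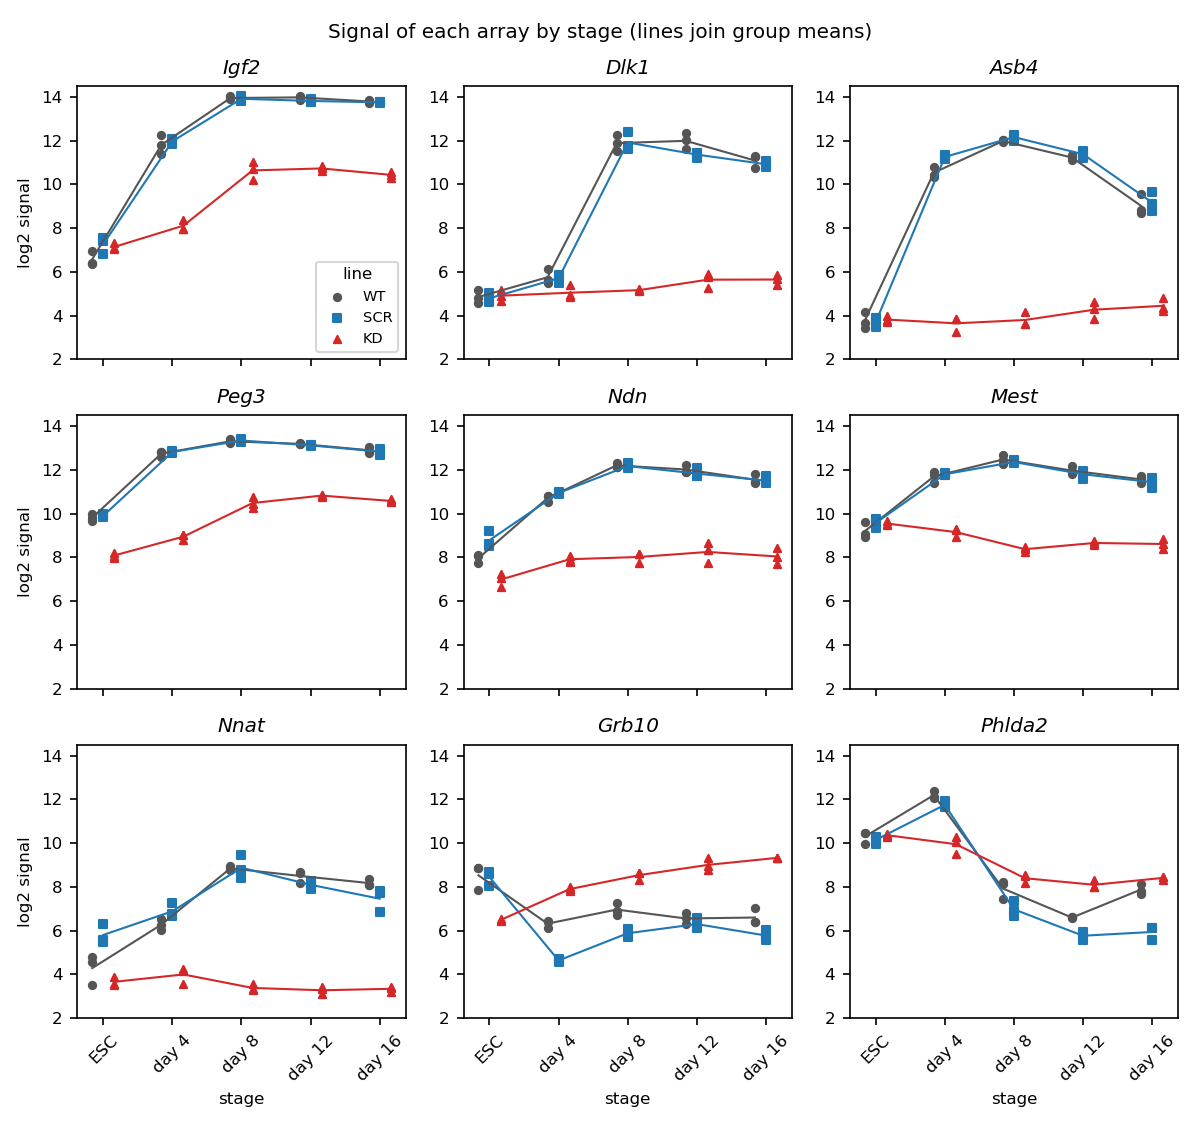
Log2 signal of each array (points, 3 a group) across ESCs and days 4 to 16 for 9 imprinted genes, with lines through the group means of WT, SCR and KD. Igf2, Dlk1, Asb4, Peg3, Ndn, Mest and Nnat rise in WT and SCR and rise less or not at all in KD, whereas in KD Grb10 is lower in ESCs and higher from day 4, and Phlda2 is higher after day 4.

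In the Snrpn-Ube3a cluster, the intronless paternally expressed genes were lower in the KD-labelled line. Ndn, which encodes the MAGE family protein necdin, read 12.15, 12.15 and 12.34 in WT, 12.13, 12.08 and 12.33 in SCR, and 8.14, 7.75 and 8.18 in KD on day 8. It was lower already in ESCs, with 8.06, 8.1 and 7.74 in WT, 9.23, 8.62 and 8.52 in SCR, and 7.23, 7.08 and 6.65 in KD. The KD arrays lay below all control arrays at both stages. The difference from SCR was -1.8 ± 0.19 in ESCs (adjusted p = 3.7e-09) and -4.16 on day 8 (adjusted p = 7.3e-20), and from WT -0.98 (adjusted p = 0.00025) and -4.19.

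Magel2, another MAGE family gene, read 7.57, 7.81 and 7.61 in WT, 7.97, 7.58 and 7.84 in SCR, and 4.83, 5.04 and 5.37 in KD on day 8, a difference of -2.72 ± 0.21 from SCR (adjusted p = 1e-13) and -2.58 from WT. Peg12 read 5.28, 4.75 and 5.68 in WT, 5.2, 5.34 and 6.27 in SCR, and 2.67, 2.93 and 2.88 in KD on the same day, a difference of -2.78 ± 0.27 from SCR (adjusted p = 4.2e-11) and -2.41 from WT. Both had KD arrays well below every control array. Snrpn, which encodes a splicing protein, moved the other way on its own probe set, with 0.7 ± 0.15 against SCR on day 16 (adjusted p = 8.1e-05) and 0.66 against WT. Ube3a, the maternally expressed ubiquitin ligase gene of the cluster, was lower than SCR on day 4 by -0.51, on day 8 by -0.64, on day 12 by -0.63 and on day 16 by -0.38 (adjusted p = 0.0083). Against WT it was called on day 8 alone, by -0.57. The day 16 call against SCR was lost without the third SCR array (-0.27, adjusted p = 0.078) and with arrays centred on their medians (-0.18). Ndn, Magel2 and Peg12 were thus lower together, Ube3a was lower by less, and Snrpn was higher.

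In the Kcnq1 cluster, genes known to restrain growth moved in opposite directions. Cdkn1c, which encodes the cell cycle inhibitor p57, read 10.44, 10.29 and 10.03 in WT, 10.41, 10.13 and 10.27 in SCR, and 7.97, 7.73 and 7.49 in KD on day 4. On day 16 it read 11.95, 11.99 and 11.46 in WT, 11.88, 11.66 and 11.91 in SCR, and 9.45, 8.63 and 9.37 in KD. The KD arrays were the lowest on both days. On day 8 they overlapped the WT arrays, and the call against WT was lost, for example, without the second KD array (-0.5, adjusted p = 0.17). The difference from SCR was -2.54 ± 0.27 on day 4 (adjusted p = 3.8e-10) and -2.67 on day 16 (adjusted p = 6.3e-11), and from WT -2.52 and -2.65.

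Phlda2, a maternally expressed gene that limits placental growth, was below the controls on day 4 and above them on day 12. It did not rise in KD but fell less than in SCR, with a change from ESCs to day 16 of -1.95 in KD and -4.21 in SCR. WT also fell less than SCR, from 10.47, 10.45 and 9.96 in ESCs to 8.13, 7.82 and 7.68 on day 16. On day 4 it read 12.13, 12.08 and 12.37 in WT, 11.91, 11.64 and 11.7 in SCR, and 10.06, 10.27 and 9.52 in KD. On day 12 it read 6.62, 6.56 and 6.6 in WT, 5.79, 5.57 and 5.93 in SCR, and 7.99, 8.3 and 7.99 in KD. The KD arrays were thus the lowest on day 4 and the highest on day 12. The difference was -1.8 ± 0.19 from SCR (adjusted p = 3.2e-10) and -2.24 from WT on day 4, and 2.33 (adjusted p = 2.9e-13) and 1.5 (adjusted p = 1.3e-08) on day 12. By day 16 it was 2.47 above SCR and 0.53 above WT, and the call against WT was lost without the third WT array (0.44, adjusted p = 0.072).

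Ascl2, a transcription factor gene of the trophoblast lineage and of intestinal stem cells, was higher in KD EBs. Day 8 signals were 5.04, 5.23 and 5.22 in WT, 4.64, 4.33 and 4.42 in SCR, and 6.35, 7.11 and 6.79 in KD. All KD arrays were above the controls, by 2.29 ± 0.18 against SCR (adjusted p = 2.3e-13) and 1.59 against WT. The 7 measured trophoblast markers of 9 listed averaged 5.8 in WT, 5.3 in SCR and 6.41 in KD on day 8. On day 16 they averaged 7.54, 5.94 and 6.29. These markers did not move together. On day 8, 3 were higher and 2 lower than SCR (28% and 24.7% of all genes), and 3 and 2 than WT (26% and 23.9%). On day 16 the counts were 4 and 3 against SCR (39.8% and 26.8%), and 1 and 4 against WT (34.6% and 26.1%). Their part in the Ascl2 result was not tested. Kcnq1ot1, the paternally expressed noncoding RNA of the cluster, was lower in KD on day 16 by -1.35 than SCR (adjusted p = 1.5e-05) and by -0.88 than WT (adjusted p = 0.0029), and the call against WT was lost with its most variable probe set (-1.33, adjusted p = 0.054). On day 8 it went the other way against WT, by 0.71 (adjusted p = 0.016), a call lost without any of 3 single arrays (lowest 0.62 without the third WT array), and was not called against SCR. Slc22a18, a transporter gene, stayed between group means of 5.44 and 5.99.

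Among the members outside these clusters, Mest, which encodes a hydrolase of the fetal mesoderm, was at a like level in all ESCs and then separated. In ESCs it read 9.06, 9.62 and 8.92 in WT, 9.78, 9.62 and 9.33 in SCR, and 9.68, 9.51 and 9.47 in KD. The day 8 arrays read 12.28, 12.69 and 12.47 in WT, 12.35, 12.44 and 12.31 in SCR, and 8.27, 8.5 and 8.37 in KD. The ESC arrays overlapped, and on day 8 the lines were far apart. The difference on day 8 was -3.99 ± 0.16 from SCR (adjusted p = 1.2e-21) and -4.1 from WT. From ESCs to day 16, Mest rose by 2.37 in WT and 1.87 in SCR and fell by 0.94 in KD (adjusted p = 9.2e-06), so the KD-labelled line moved against the controls.

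Plagl1, a zinc finger transcription factor gene that acts within the imprinted network, separated all 3 lines from day 8. In ESCs it read 3.41, 3.67 and 3.56 in WT, 3.62, 3.34 and 3.45 in SCR, and 5.49, 5.39 and 5.48 in KD. On day 8 it read 10.4, 10.01 and 9.87 in WT, 6.34, 7.43 and 6.64 in SCR, and 3.99, 3.46 and 4.27 in KD. KD was the highest line in ESCs and the lowest on day 8, and SCR lay between WT and KD without overlap. The difference from SCR was 1.98 ± 0.38 in ESCs (adjusted p = 9.3e-05) and -2.9 on day 8 (adjusted p = 2.9e-08), and from WT 1.91 and -6.19 (adjusted p = 1.8e-16). SCR was below WT by -3.29 on day 8, -3.55 on day 12 and -3.45 on day 16 (adjusted p = 1.5e-08). Plagl1 has 2 further probe sets, both dimmer. On day 16 both were also called lower in SCR than in WT, but neither was called between KD and SCR. With the mean of its probe sets, Plagl1 differed between KD and SCR by -0.88 on day 8 (adjusted p = 0.00075).

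**Figure D4:**
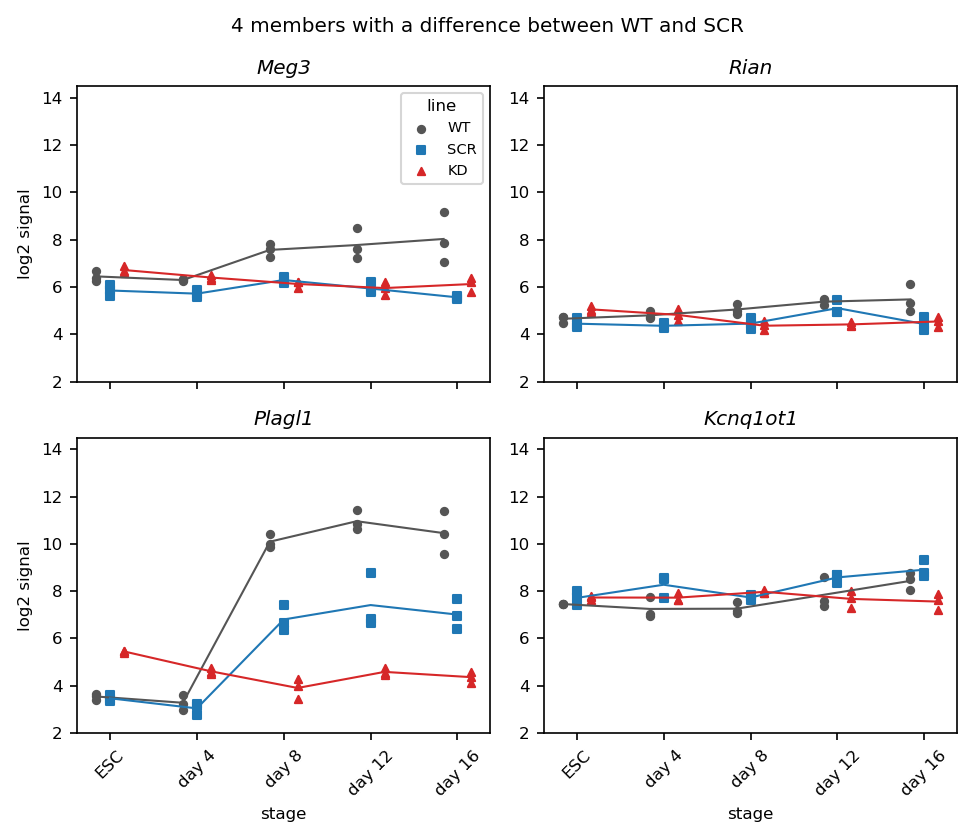
Log2 signal of each array (points, 3 a group) across stages for Meg3, Rian, Plagl1 and Kcnq1ot1 in WT, SCR and KD, with lines through group means. On days 8 to 16 WT is the highest line for Meg3 and Plagl1, with SCR close to KD for Meg3 and between WT and KD for Plagl1.

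Nnat, which encodes the small membrane protein neuronatin, was lower in KD EBs and also differed between the control ESCs. In ESCs it read 4.54, 4.79 and 3.52 in WT, 6.32, 5.58 and 5.5 in SCR, and 3.89, 3.56 and 3.52 in KD, so that WT and KD overlapped and SCR stood above both (SCR minus WT 1.52 ± 0.26, adjusted p = 0.00016). With these 6 arrays of SCR and WT fitted alone, Nnat was not called (adjusted p = 0.12). On day 8 it read 8.76, 8.97 and 8.81 in WT, 8.76, 9.45 and 8.41 in SCR, and 3.56, 3.31 and 3.26 in KD. There the controls overlapped and KD lay far below, by -5.5 against SCR (adjusted p = 2.2e-19) and -5.47 against WT.

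Gnas, which encodes the stimulatory G protein alpha subunit, was lower at every stage. On day 8 it read 13.38, 13.45 and 13.53 in WT, 13.52, 13.46 and 13.38 in SCR, and 10.73, 10.85 and 11.06 in KD. The difference of -2.57 ± 0.11 from SCR (adjusted p = 6e-21) and -2.57 from WT far exceeded the spread of the arrays. Slc38a4, an amino acid transporter gene, read 12.38, 12.02 and 11.65 in WT, 11.87, 11.83 and 12.3 in SCR, and 9.83, 9.55 and 9.6 in KD on day 4, with KD below all controls. It was lower by -2.34 ± 0.18 than SCR (adjusted p = 2.1e-13) and by -2.36 than WT, and by -0.73 and -1.18 on day 16. A second Slc38a4 probe set was called the other way against SCR on days 12 and 16, so its direction late in the course depends on the probe set.

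Gatm, a creatine synthesis gene, is maternally expressed in the placenta and changed direction along the course. In ESCs it read 5.33, 5.87 and 4.44 in WT, 6.97, 6.11 and 5.59 in SCR, and 4.77, 4.52 and 4.08 in KD. KD lay below SCR by -1.77 ± 0.29 (adjusted p = 1.3e-05) and overlapped WT. On day 4 it was above SCR by 1.34 (adjusted p = 0.00023) and above WT by 1 (adjusted p = 0.0057), and on day 16 below them by -1.57 and -2.25. Impact, a regulator of translation, was lower in KD ESCs than in SCR by -1.21 ± 0.1 (adjusted p = 3.4e-11) and than in WT by -0.99. On day 16 the difference from SCR was -0.17 and not called (adjusted p = 0.16), and that from WT was -0.44 (adjusted p = 0.00044), a call lost with arrays centred on their medians (-0.24) and reversed in sign with the most variable probe set (0.06). Nap1l5 and Mirg lay below the array median in all 15 groups.

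Some members also differed between the controls. SCR had 5 members higher and 1 lower than WT in ESCs, where 4.43% of all genes were called higher and 5.72% lower. The counts were 1 and 2 on day 4 (0.61% and 1.32% of all genes), 1 and 5 on day 8 (2.83% and 4.16%), 3 and 5 on day 12 (7.05% and 7.67%), and 0 and 7 on day 16 (3.86% and 4.25%). The 6 cardiac markers averaged 11.03 in SCR and 7.1 in WT on day 8, and 11.2 and 8.4 on day 16, and their part in these differences was not tested. Besides Meg3, Rian and Plagl1, those lower in SCR on day 16 include Phlda2 by -1.94 (adjusted p = 8.2e-10), Peg10 by -1.27 (adjusted p = 0.0013) and Ascl2 by -1.18. The count in ESCs fell to 2 without the third WT or the first SCR array, and the count on day 4 fell to 1 without WT array 1 or 3 or SCR array 1 or 3. With the compared groups fitted alone, the counts were 0 in ESCs (7 at an unadjusted p under 0.05, limma), 1 on day 4 and 4 on day 12. With all groups, the day 12 count fell to 3 without the third WT array and to 5 without the first WT, first SCR or second SCR array.

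Regulators of imprints were mostly higher in KD EBs of days 8 and 16. Of 17 measured, 10 were higher and 2 lower than SCR on day 8 (28% and 24.7% of all genes), and 11 and 2 on day 16 (39.8% and 26.8%). Against WT the counts were 12 and 0 on day 8 (26% and 23.9%), and 11 and 1 on day 16 (34.6% and 26.1%). In ESCs, 6 were higher and 3 lower than SCR (12.3% and 11.3%), and 5 and 3 against WT (8.66% and 9.78%). Dnmt3l, the cofactor of de novo DNA methylation, averaged 10.74 in KD and 4.21 in SCR on day 8, a difference of 6.53 (adjusted p = 1.8e-25), and differed from WT by 6.61. Dnmt3b, a de novo DNA methyltransferase, and Tet1, which oxidises methylated cytosine, were higher on day 8 by 3.37 and 3.11 than SCR and by 3.2 and 3.33 than WT. Dppa3, which protects imprints in the early embryo, was lower in ESCs by -2.14 than SCR and by -2.58 than WT, and higher on day 8 by 3.93 and 3.07.

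Of 21 further imprinted genes outside the member list, 4 were higher and 10 lower than SCR on day 8 (28% and 24.7% of all genes), and 5 and 10 on day 16 (39.8% and 26.8%). Against WT the counts were 2 and 9 (26% and 23.9%), and 5 and 8 (34.6% and 26.1%). Sfmbt2, a polycomb gene of the extraembryonic lineages, averaged 10.21 in KD and 5.59 in SCR on day 8, a difference of 4.62, and differed from WT by 4.16. Airn, the noncoding RNA that overlaps Igf2r, averaged 6.12 and 8.84, a difference of -2.72, and differed from WT by -2.5.

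The nearest measured genes on either side of the clusters, 11 in all, were more often higher than lower in KD EBs. They were chosen only for being in none of the lists used here, and whether they are imprinted was not examined. Th flanks both the H19-Igf2 and the Kcnq1 cluster. On day 8, 6 were higher and 3 lower than SCR (28% and 24.7% of all genes), with a median difference of 0.49, and on day 16, 7 were higher and 2 lower (39.8% and 26.8%). Against WT the counts were 5 and 1 on day 8 (26% and 23.9%), and 5 and 2 on day 16 (34.6% and 26.1%). Beside the Peg3 cluster, Aurkc, a kinase gene of germ cells, averaged 8.19 in KD and 4.38 in SCR on day 8, a difference of 3.81, and differed from WT by 3.44. Beside the Peg10 cluster, Casd1 was lower by -1.93 than SCR and by -1.62 than WT, and Pdk4 was higher by 2.34 and 2.5. None of the 11 was called between SCR and WT on days 4 and 8. In ESCs, 0 were higher and 3 lower in SCR than in WT (4.43% and 5.72% of all genes). On day 12 the counts were 1 and 1 (7.05% and 7.67%), and on day 16 they were 0 and 2 (3.86% and 4.25%). Aurkc was lower in SCR than in WT by -1.77 in ESCs and by -1.06 on day 16, and Pdk4 by -1.13 in ESCs. In ESCs, KD differed in Aurkc from SCR by 0.91 and from WT by -0.86.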

How the data were processed

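The values are log2 signals of Affymetrix mouse genome arrays, as the authors deposited them, for 45037 probe sets on 45 arrays. The submitters' processing notes name Affymetrix Expression Console, Partek 6.6 and RMA, with no role or order. Log2 signals of dim probe sets hold background, so their differences can be understated. Probe sets were named through the platform's gene table: 34945 had 1 symbol, 932 several and 9160 none, and those with several or none were not used for genes. The probe set with the highest mean stood for each of 18193 genes. Groups follow titles and source names.

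A model with a mean for each of the 15 groups was fitted with limma 3.58.1 (R 4.3.3), with 30 residual degrees of freedom and p-values adjusted over all genes by Benjamini-Hochberg. All tests are two-sided. The method was tested on simulated data for the day 8 comparison of KD with SCR. Arrays of a group correlated at 0.9888 to 0.9961. The members and all lists were chosen with earlier results of these data known. Single-array values are given, at 1 or 2 stages each, for the 22 members called with a difference of at least 1 (log2) against both controls in 1 direction at 1 stage or more, or between the control ESCs. Those of Meg3 and Rian were added after their values were seen. Alternatives were other probe set choices, a filter on dim genes, centring, cyclic loess, other sets of arrays in the fit and a replicate block.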

Additional observations from a re-analysis of the deposited data

Results flagged for a closer look

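The change from ESCs to day 16 differed between the KD-labelled line and SCR, by the limma test of that difference, for 22 imprinted genes. On the log2 scale, KD minus SCR, the difference in change was largest for Grb10 at 5.51, where the controls fell and KD rose. It was also positive for Phlda2 (2.26), Ascl2 (1.52), Impact (1.04) and Snrpn (0.7). It was most negative for Dlk1 (-5.39), Asb4 (-4.84), Plagl1 (-4.63) and Igf2 (-3.19). Mest (-2.8), Peg12 (-2.77), Nnat (-1.98), Sgce (-1.88) and Igf2r (-1.71) followed. The values were smaller for Ndn (-1.67), Cdkn1c (-1.56), Kcnq1ot1 (-1.37), Slc38a4 (-1.2), Zim1 (-0.82), Gnas (-0.8), Magel2 (-0.71) and Peg3 (-0.44). The Magel2 call (adjusted p = 0.045) was lost with the replicate block and in 7 of the 12 fits with 1 array left out, where the value without the third SCR ESC array was -0.51.

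The probe set listed jointly for Mir675 and H19, which no comparison of members used, was higher in KD than in SCR on day 4 by 0.9 (adjusted p = 0.0057).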

How the results depend on the processing

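Of 136 counts of called members under other settings, 119 stayed within 1.5 times the count given above, as did 110 of 120 counts with 1 array left out. With dim genes left out, 18 members remained for testing, and the counts against SCR were 9 in ESCs and 17, 16, 17 and 16 on days 4, 8, 12 and 16. Against WT they were 13, 18, 16 and 17 on those days, between SCR and WT 3 on day 16, and 17 for the change from ESCs to day 16 in WT. Between SCR and WT on day 12 the count was 5 with centred arrays, and 4 with the most variable probe set or with the compared groups fitted alone. On day 4 it was 1 under each of these last settings. In ESCs, limma on the 6 compared arrays alone called 0 members, with 7 at an unadjusted p under 0.05, against 11 in the fit of all groups. With 1 array left out, these counts ranged from 3 to 10 on day 12, from 1 to 3 on day 4 and from 2 to 7 in ESCs, and KD against SCR on day 8 ranged from 25 to 26. Some directions reversed. With the most variable probe set, Impact against SCR was 0.27 on day 4, 0.05 on day 8 and 0.05 on day 12, and against WT 0.04 on day 12 and 0.06 on day 16. Slc22a18 against SCR on day 16 was -0.13, its change in SCR was 0.59 (adjusted p = 0.0036, against -0.45 with the probe set used, and 0.07 with the mean of probe sets), and the change of Ube3a was -0.24 in KD and -0.01 in WT (-0.06 with centred arrays). Slc38a4 against SCR on day 16 was 0.04 with the mean of probe sets. The cause was not tested. Same-numbered arrays deviated together, with a correlation over 0.1, in all 3 pairs only for SCR and WT in ESCs and day 8 EBs. For KD and SCR, 2 of 3 pairs passed that limit in ESCs and on days 4 and 16, and 1 on day 8. For KD and WT, 2 of 3 passed it in ESCs and on day 8. With the replicate block, KD against SCR on day 8 again had 26 called members, no count moved by over 1.5 times, and the calls of Meg3 against SCR on day 4 (0.68, adjusted p = 0.05) and of Magel2 in the difference in change (-0.71, adjusted p = 0.051) changed. Leaving out the first day 8 arrays, chosen after seeing the data, gave 24 called members against SCR, 25 against WT and 5 between the controls. Centring moved the median of all genes on day 16 to 0.36 against SCR.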

Other observations

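The joint Mir675 and H19 probe set had higher means on day 16 than in ESCs in all 3 lines and lay highest in WT from day 8. On day 4 its mean was 5.81 in WT, 4.93 in SCR and 5.83 in KD. Its mean went from 4.86 in ESCs to 7.92 on day 8 and 9.5 on day 16 in WT, from 4.98 to 5.68 and 8.04 in SCR, and from 5.6 to 6.29 and 6.7 in KD. SCR was lower than WT by -2.24 ± 0.26 (SE) on day 8 (adjusted p = 4.6e-07) and by -1.46 on day 16 (adjusted p = 0.00018), and KD was lower than WT by -1.63 (adjusted p = 2.2e-06) and -2.8 (adjusted p = 2.2e-11). The signal cannot be divided between the long noncoding RNA and the microRNA precursor inside it. It lay below WT in both other lines on day 8, as did Meg3.

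Snrpn shares 6 probe sets with Snurf, the short upstream frame of the same transcript. None was called lower in KD than in SCR or WT at any stage, while 2 or 3 of the 6 were called higher in each comparison from day 4 to day 16. The locus therefore read differently from Ndn, Magel2 and Peg12 in the same cluster on these probe sets too.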
